A study of Mus musculus with 6 samples.

Results

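*Lcn2*, *Slpi*, *Defb1*, *Defb6*, *Defb14*, *Camp*, *Pglyrp1*, *Ltf* and *Chil1* encode peptides and proteins with which skin and white blood cells meet microbes. These 9 genes were taken by name from a list of epithelial defence genes, and all 9 were found by their Ensembl identifiers among the 26579 genes of the count table. RNA-Seq had been carried out on whole-skin biopsies of the dorsal neck from female mice at postnatal day 33. The 3 wildtype mice (WT) were littermates of 3 mice (TG) that carry the YAP2-5SA-∆C transgene, which encodes a mildly active mutant of the transcriptional coactivator YAP. Both groups are of the same sex and age, and the transgene product is made in basal keratinocytes that carry keratins 5 and 14. Nothing in the labels marks a batch.

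Antimicrobial peptides are short, positively charged molecules that damage microbial membranes. Keratinocytes make some of them all the time and others after wounding, infection or cytokines of the IL-1, IL-17, IL-22 and IL-36 families, while neutrophils carry several of the same proteins in their granules. In whole skin such a transcript can therefore come from epithelium or from blood cells. In biopsies, more cells of a type and more RNA per cell cannot be told apart.

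Between 11225705 and 19505036 reads per library had been counted on genes. Values below are CPM, read counts scaled to a common library total after TMM correction (trimmed mean of M values). A gene was tested when it reached at least 1 CPM in at least 3 libraries, which left 15102 genes and 5 of the 9 defence genes. *Defb14*, *Camp*, *Pglyrp1* and *Ltf* did not reach that level. The adjusted p-values are from edgeR's quasi-likelihood test with Benjamini-Hochberg adjustment over all 15102 genes, and a gene was called below 0.05. *Yap1* itself had 131 ± 9.47 CPM in WT and 136 ± 7.32 CPM in TG skin (SD, n = 3 each), with overlap and an adjusted p of 0.635 (edgeR). Whether transgene reads were counted on it was not tested. TG replicate 2 stood apart from the other TG mice in hair genes. Its 9 hair shaft and inner root sheath markers summed to 1389 CPM, against 6778 and 8614 CPM in TG replicates 1 and 3 and 12790 to 16030 CPM in WT skin. Without this library *Slpi* had a log2 fold change of 2.03, *Defb6* of 0.63, *Lcn2* of 0.59, *Defb1* of 0.38 and *Chil1* of 0.33. In that fit none of the 5 was called by edgeR's quasi-likelihood test, beside 5.46% of all genes.

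None of the 5 tested defence genes was called in TG skin by edgeR's quasi-likelihood test, where 1.91% of all genes were. *Slpi* came closest, with a fitted fold change of 3.69 and an adjusted p of 0.0636. At an unadjusted p below 0.05, *Slpi* and *Defb6* passed, as did 13.3% of all tested genes in the higher direction. With the likelihood-ratio test 1 of the 5 was called, *Slpi*, beside 10.4% of all genes (5.52% higher in TG). DESeq2 called 2, *Slpi* and *Defb6*, beside 10.7% of all genes (6.48% higher in TG) and voom called 0 (1.65% of all genes). Counting tested and untested genes together, 5 of the 9 had every TG library above every WT library, namely *Slpi*, *Defb6*, *Defb1*, *Chil1* and *Defb14*, and none had the reverse. Among all tested genes 15.5% were separated in this way with TG higher, and among the 11477 genes below the testing level 5.96%. With TG lower the shares were 18.2% and 3.29%.

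**Figure D1:**
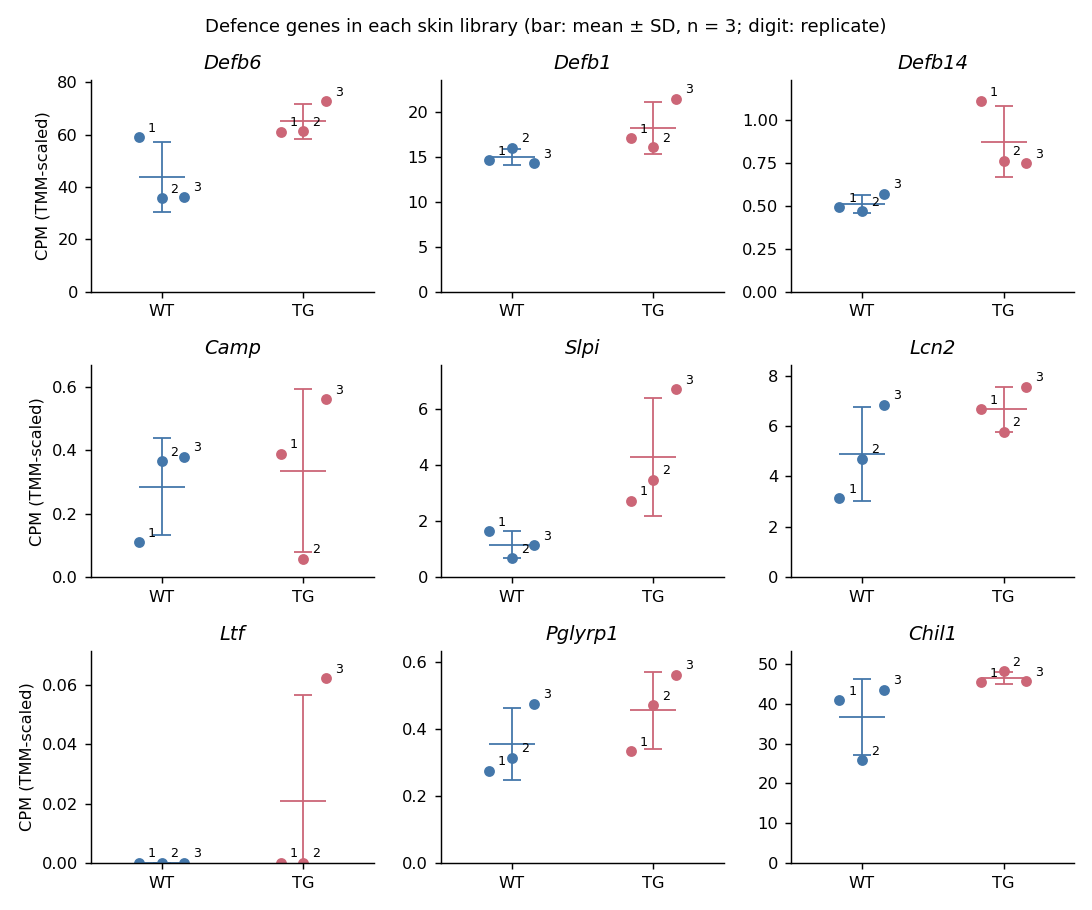
CPM of the 9 defence genes in each library, with WT in blue and TG in red, the digit giving the replicate and the bars the mean ± SD of 3 mice. Each panel has its own linear axis from 0. The TG points of *Slpi* lie between 2.73 and 6.68 CPM and all WT points at or below 1.65 CPM, while the *Lcn2* groups overlap and *Ltf* rests on 1 read.

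The genes differed widely in level. Per kilobase of exon, *Defb6* was the highest, with 135 ± 41.2 CPM per kilobase in WT and 202 ± 20.8 in TG skin (SD, n = 3 each). *Defb1* followed with 17.2 ± 1.06 and 20.9 ± 3.30 CPM per kilobase and *Chil1* with 13.1 ± 3.42 and 16.6 ± 0.560 (SD, n = 3 each). No *Defb6* library came as low as any library of these 2 genes, whereas *Defb1* (16.4 to 24.6) and *Chil1* (9.20 to 17.2) overlapped. *Defb14*, *Lcn2* and *Slpi* lay between 0.577 and 5.66 CPM per kilobase with overlapping ranges. *Camp* and *Pglyrp1* had at most 0.741 and 0.306 CPM per kilobase, and *Ltf* had 1 read in all 6 libraries. Lengths sum all annotated exons of a gene, alternative ones included. Summed over the 9 genes, CPM was 84.1 to 120 in WT and 135 to 156 in TG skin, and most of it was *Defb6* and *Chil1*.

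Some sequence at the start of these genes is shown because C/EBP and NF-κB, factors known to induce several of them, read short words in DNA. RefSeq promoter windows on GRCm38.p6, from 250 bases before to 50 bases after the start, were found for 7 of the 9 genes, all but *Defb1* and *Defb14*, and searched on both strands. The C/EBP word TTGCNNAA occurred in 4 of the 7 (10.8% of 32851 windows of all genes) and the NF-κB consensus in 4 of the 7 (8.46% of all windows). The AP-1 word TGACTCA (5.20% of windows) and the word GGAATG of TEAD factors, the DNA-binding partners of YAP (14.7%), were in none of the 7. A match is only a match of letters, and binding was not measured. In the lines below, capitals mark the match in 30 bases read in the direction of the gene, with the distance of its first base from the RefSeq start. The NF-κB matches of *Camp* and *Pglyrp1* and the C/EBP match of *Ltf*, genes below the testing level, are counted above but not printed. For *Lcn2* and *Slpi* the RefSeq start lies inside the longer GENCODE gene span given with the values, so their stretches do too.
Defb6, C/EBP at -209, chr8:19225258-19225287 (+): ggtagctcttcTTGCTAAAcaatacaggaa
Defb6, NF-κB at -180, chr8:19225288-19225317 (+): gaaatcttctGGGGATCCCCacatttgcat
Defb6, C/EBP at -166, chr8:19225301-19225330 (+): gatccccacatTTGCATAAaagacactgag
Lcn2, C/EBP at -216, chr2:32387937-32387966 (-): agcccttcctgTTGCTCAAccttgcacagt
Slpi, C/EBP on the other strand at -241, chr2:164356728-164356757 (-): gaatttgtaTTGAGCAAtaggttagagttt
Chil1, NF-κB at -179, chr1:134181967-134181996 (+): ggagggatttGGGACTCCCCtctccactcc

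The beta-defensins are small peptides held together by cysteine bridges. *Defb6* (ENSMUSG00000050756, chr8:19225478-19228209, 2 exonic blocks) had 59.1, 35.7 and 36.3 CPM in WT replicates 1 to 3 and 61.2, 61.2 and 72.9 CPM in TG replicates 1 to 3. The TG libraries were all higher, but WT replicate 1 came within a few CPM of them, far from the other WT mice. The log2 fold change was 0.57 (standard error 0.20, 95% interval 0.10 to 1.05), with an adjusted p of 0.133 (edgeR, quasi-likelihood) or 0.0280 (DESeq2). Without WT replicate 1 the log2 fold change was 0.86 and *Defb6* was called (adjusted p = 0.0369, edgeR), as were 0.949% of all genes. Without any other single library the log2 fold change was 0.45 to 0.64 and *Defb6* was not called. Without WT replicate 2, WT replicate 3 or TG replicate 3, however, 0 genes of the whole table were called. In that WT library the skeletal muscle markers summed to 1271 CPM, against 6135 and 5055 CPM in WT replicates 2 and 3, and the basal keratinocyte markers to 4060 CPM, against 3318 and 3575 CPM. Of the 10 marker lists, it was the highest WT library in the T cell, basal and suprabasal keratinocyte and sebaceous gland sums and the lowest in the other 6. The part of these cells in the *Defb6* counts was not tested.

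*Defb1* (ENSMUSG00000044748, chr8:21776599-21795185), a defensin that epithelia make without a stimulus, had 14.6, 16.01 and 14.3 CPM in WT and 17.1, 16.06 and 21.5 CPM in TG replicates 1 to 3. TG replicate 2 barely exceeded WT replicate 2, and the distance between the groups rested mainly on TG replicate 3. The log2 fold change was 0.28 (standard error 0.13, 95% interval -0.02 to 0.58), adjusted p = 0.208 (edgeR). It was 0.15 without TG replicate 3.

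*Defb14* (ENSMUSG00000046354, chr8:19194357-19195212), the mouse counterpart of human beta-defensin 3, is an inducible member. It had 9, 9 and 6 reads in WT and 20, 13 and 12 reads in TG replicates 1 to 3, or 0.495, 0.471 and 0.571 CPM against 1.11, 0.765 and 0.749 CPM. The groups did not overlap. Over the pooled reads of each group the TG to WT ratio was 1.79, with a 95% interval of 1.07 to 3.07 that covers counting error only. A permutation of the 6 mice gives an exact two-sided p of 0.1, the smallest that 3 against 3 allow. When all genes with a read were tested, its log2 fold change was 0.81 (standard error 0.32, adjusted p = 0.233, edgeR).

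*Camp* (ENSMUSG00000038357, chr9:109847379-109849617) encodes the cathelicidin of the mouse, made by neutrophils and by stimulated keratinocytes. It had 2, 7 and 4 reads in WT and 7, 1 and 9 in TG replicates 1 to 3. The ratio of the pooled reads was 1.25 (95% counting interval 0.571 to 2.80), and a difference was not detectable at this depth.

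*Slpi* (ENSMUSG00000017002, chr2:164354070-164389095) encodes an inhibitor of neutrophil elastase and cathepsin G that also kills bacteria. It had 1.65, 0.680 and 1.14 CPM in WT replicates 1 to 3. In TG replicates 1 to 3 it had 2.73, 3.47 and 6.68 CPM. The lowest TG library was above the highest WT library, and TG replicate 3 was well above the other TG mice. The log2 fold change was 1.88 (standard error 0.44, 95% interval 0.84 to 2.93), which ranked 44 among the higher changes of the 15102 genes. By test, the adjusted p was 0.0636 (edgeR, quasi-likelihood), 0.0810 (voom), 7.81e-06 (edgeR, likelihood ratio) and 0.00149 (DESeq2). Leaving out 1 library at a time gave log2 fold changes of 1.42 (without TG replicate 3) to 2.29 (without WT replicate 1). *Slpi* was called in none of these fits, with adjusted p-values of 0.0575 to 0.207 (edgeR). Without WT replicate 2, WT replicate 3 or TG replicate 3, 0 genes of the whole table were called, so those fits say nothing about *Slpi* alone. The other fits called 0.557% to 5.46% of all genes. *Slpi* rests on 12 to 107 reads per library. A microRNA gene, *Mir7678*, overlaps its exons on the same strand.

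*Lcn2* and *Ltf* withhold iron from bacteria, the first by binding siderophores and the second by binding iron itself. *Lcn2* (ENSMUSG00000026822, chr2:32384633-32388252) had 3.13, 4.71 and 6.85 CPM in WT and 6.67, 5.77 and 7.55 CPM in TG replicates 1 to 3. WT replicate 3 lay among the TG libraries. The log2 fold change was 0.47 (standard error 0.27, 95% interval -0.18 to 1.11), adjusted p = 0.316 (edgeR). It was 0.77 without WT replicate 3 and 0.23 without WT replicate 1. *Lcn2* was not called in either fit, where 0 and 0.949% of all genes were. WT replicate 3 was also the WT library with the most *S100a8* and *S100a9*, the subunits of calprotectin. *S100a8* had 18.4 CPM there, against 3.79 and 5.18 CPM in WT replicates 1 and 2, and *S100a9* had 20.6 CPM against 3.85 and 2.20 CPM. *Ltf* (ENSMUSG00000032496, chr9:111019271-111042767) had 0 reads in 5 libraries and 1 read in TG replicate 3. A count of 0 over the 3 WT libraries allows up to 0.0623 CPM, for counting error only.

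*Pglyrp1* and *Chil1* stand for recognition of microbial surfaces. *Pglyrp1* (ENSMUSG00000030413, chr7:18871331-18890459), a bactericidal peptidoglycan-binding protein of neutrophil granules, had 5, 6 and 5 reads in WT and 6, 8 and 9 in TG replicates 1 to 3. Of its 1836 words of 50 bases, 49 also occur in transcripts of other genes. The groups overlapped in CPM, and the ratio of the pooled reads was 1.37 (95% counting interval 0.694 to 2.78). *Chil1* (ENSMUSG00000064246, chr1:134182176-134190181) encodes a chitinase-like protein that binds chitin without cleaving it. It had 40.9, 25.8 and 43.6 CPM in WT and 45.5, 48.3 and 45.7 CPM in TG replicates 1 to 3. The TG mice were close to each other and just above WT replicates 1 and 3, and WT replicate 2 was far lower. The log2 fold change was 0.34 (standard error 0.18, 95% interval -0.09 to 0.77, adjusted p = 0.280, edgeR), and 0.14 without WT replicate 2.

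**Figure D2:**
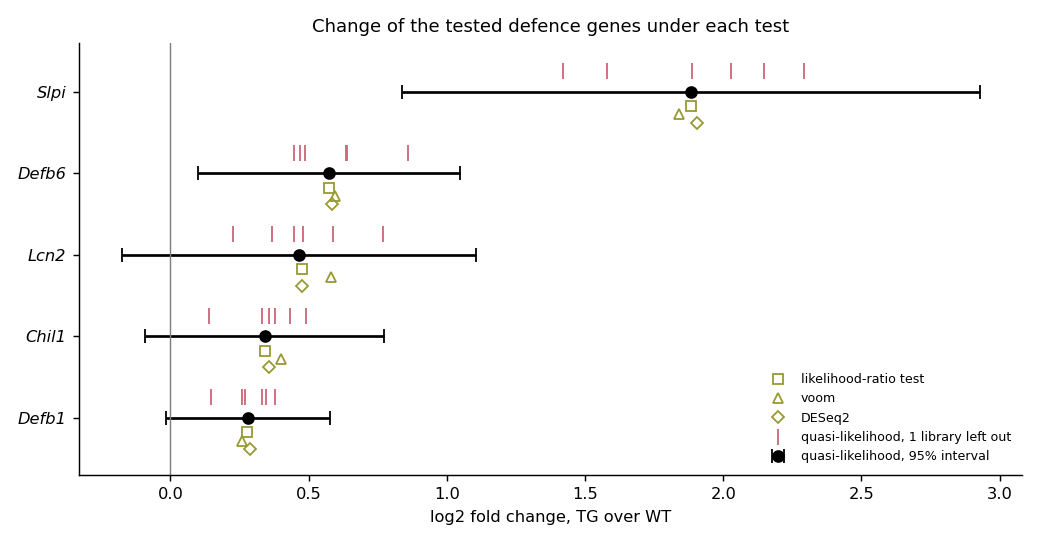
Log2 fold change (TG over WT) of the 5 tested defence genes. Black circles with bars give edgeR's quasi-likelihood estimate and its 95% interval, red ticks the same fit with 1 library left out, and open symbols the other tests. All ticks lie to the right of 0, and the intervals of *Lcn2*, *Chil1* and *Defb1* include 0.

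Over the 6 libraries the tested genes did not follow 1 pattern. The log2 CPM of *Slpi* and *Defb6* had a Pearson r of 0.91 over the 6 libraries, and 0.763 after the mean of each group was taken off. *Lcn2* and *Defb6* had 0.111 and -0.676. These 6 points share the genotype difference, so the correlations are descriptions only. The genes most like *Slpi* were *Lgals4*, *Slc12a7* and *Gm13124* (r of 0.997, 0.995 and 0.99 over 6 libraries), and 87 genes had an r above 0.95 with it. *Tnfrsf26* and *Slc48a1* were among those most like *Defb6* (0.993 and 0.99), *Fabp5*, *Gmnn* and *Crat* most like *Defb1* (0.998, 0.988 and 0.988), *Anln*, *Dnmt3a* and *Arhgef3* most like *Chil1* (0.995, 0.988 and 0.987) and *Gpr63*, *Zfp366* and *Tpmt* most like *Lcn2* (0.984, 0.981 and 0.979).

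Some other defence genes of skin were called. Of 35 further antimicrobial and acute defence genes, 21 were tested, 3 were called higher and 0 lower in TG skin by edgeR's quasi-likelihood test, against 1.44% of all genes higher and 0.464% lower. Their median log2 fold change was 0.67, beside -0.01 for all tested genes and 0.47 for the 5 tested defence genes above. *Pglyrp3* and *Pglyrp4*, the peptidoglycan recognition proteins of epidermis, both rose. *Pglyrp3* had 4.45, 3.98 and 5.04 CPM in WT and 7.51, 10.9 and 11.6 CPM in TG replicates 1 to 3, a log2 fold change of 1.16 (standard error 0.19, adjusted p = 0.0436, edgeR). *Pglyrp4* had 9.70 to 11.7 CPM in WT and 14.8 to 18.9 CPM in TG skin (log2 fold change 0.70, standard error 0.12, adjusted p = 0.0456, edgeR). The groups did not overlap for either gene. Calls in this list numbered 6 without TG replicate 2 (5.46% of all genes), 1 without WT replicate 1 (0.949%) and 1 without TG replicate 1 (0.557%). Without WT replicate 2, WT replicate 3 or TG replicate 3 no gene of the whole table was called, so those fits say nothing about single lists.

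*Lpo*, which encodes lactoperoxidase, a secreted enzyme that makes antimicrobial oxidants, rose from 4.07, 4.13 and 7.99 CPM in WT to 13.6, 20.3 and 21.5 CPM in TG skin. Its log2 fold change was 1.80 (standard error 0.30, adjusted p = 0.0436, edgeR), with no overlap. The remaining 18 were not called, and 4 of the 21 had negative changes. *S100a7a* had 26.8, 42.1 and 35.8 CPM in WT and 15.2, 2.41 and 18.3 CPM in TG skin (log2 fold change -1.54, standard error 0.61, adjusted p = 0.167, edgeR), lowest in TG replicate 2, the library with the fewest hair gene reads. *S100a8* and *S100a9* overlapped between the groups, with *S100a9* at 3.85, 2.20 and 20.6 CPM in WT and 26.4, 10.6 and 34.8 CPM in TG skin.

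Cytokines, receptors and factors known to regulate such genes were the next group, with 31 of 36 tested. Most are known as inducers, but *Il36rn*, the IL-36 receptor antagonist, and *Zc3h12a*, an RNase that degrades inflammatory mRNAs, act as brakes, and both are among the separated genes counted here (log2 fold changes 0.48 and 0.59, not called). *Il36a* and *Il36b*, IL-1 family cytokines made by keratinocytes, were called higher (1.44% of all tested genes) and none lower (0.464%), and the median log2 fold change was 0.40. With the 2 called genes included, 22 of the 31 were separated with TG higher (15.5% of all tested genes) and 2, *Egfr* and *Vdr*, with TG lower (18.2% of all tested genes). *Il36a* had 9.45, 8.01 and 11.3 CPM in WT and 19.9, 26.4 and 18.8 CPM in TG replicates 1 to 3, a log2 fold change of 1.18 (standard error 0.18, adjusted p = 0.0398, edgeR). *Il36b* had 17.3, 16.6 and 17.1 CPM in WT and 28.4, 35.7 and 27.8 CPM in TG skin (log2 fold change 0.85, standard error 0.11, adjusted p = 0.0332, edgeR). Without TG replicate 2 there were 9 calls in this list (5.46% of all genes), and without WT replicate 1 (0.949%) or TG replicate 1 (0.557%) there were 0. The third agonist of the IL-36 receptor, *Il36g*, was separated between the groups, at 32.9 to 40.2 CPM in WT and 56.4 to 92.9 CPM in TG skin (adjusted p = 0.0519, edgeR). *Il1b* had the highest log2 fold change of the tested genes in this list, with 2.47, 0.942 and 1.71 CPM in WT and 19.7, 3.29 and 14.5 CPM in TG skin (log2 fold change 2.87, standard error 0.67, adjusted p = 0.0634, edgeR). The IL-17 receptor subunits *Il17ra* and *Il17rc* and the IL-22 receptor *Il22ra1* were separated with TG higher and not called, with log2 fold changes of 0.35, 0.64 and 0.45. The ligands gave little to compare, since *Il17f* and *Il17c* had at most 0.471 CPM in any library and *Il17a* and *Il22* were not among the genes of the table. *Nfkbiz*, an NF-κB cofactor for defensin and *Lcn2* induction, had 42.6 to 44.9 CPM in WT and 52.9 to 64.7 CPM in TG skin (adjusted p = 0.0531, edgeR).

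Of 21 receptors, target proteases and partners of the 9 proteins, 13 were tested and 1 was called higher, beside 1.44% of all tested genes. *Il13ra2*, a receptor of the *Chil1* protein and a decoy for IL-13, rose from 1.59, 1.20 and 1.43 CPM in WT to 2.84, 3.77 and 5.24 CPM in TG skin (log2 fold change 1.48, standard error 0.27, adjusted p = 0.0467, edgeR). The groups did not overlap. *Lrp2*, the large endocytic receptor that takes up the *Lcn2* protein, had 2.69, 2.98 and 3.71 CPM in WT and 1.67, 0.530 and 0.499 CPM in TG skin, and was not called (log2 fold change -1.76, standard error 0.44, adjusted p = 0.0692, edgeR). *Slc22a17*, its other receptor, overlapped between the groups at 8.01 to 12.04 and 9.12 to 10.1 CPM. *Ctsk*, a cysteine protease, had 47.9 to 57.9 CPM in WT and 72.0 to 84.5 CPM in TG skin (adjusted p = 0.0526, edgeR). The targets of the *Slpi* protein were near the floor, *Elane* at most at 0.177 CPM and *Ctsg* at most at 0.530 CPM in any library. The median log2 fold change of the 13 was 0.09. There were 5 calls in this list without TG replicate 2 (5.46% of all genes), 1 without TG replicate 1 (0.557%) and 0 without WT replicate 1 (0.949%).

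**Figure D3:**
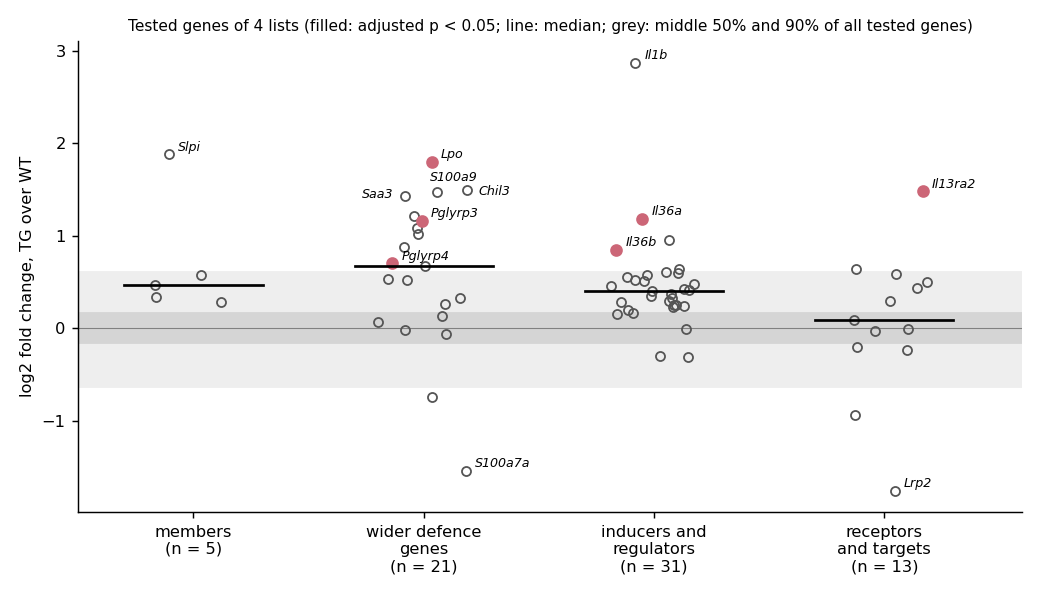
Log2 fold change (TG over WT) of the tested genes of 4 lists, each point a gene, filled where edgeR's adjusted p was below 0.05 and with a line at the median. The grey bands hold the middle 50% and 90% of all 15102 genes. The medians are 0.47, 0.67, 0.40 and 0.09 from left to right.

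Since neutrophils store *Camp*, *Ltf*, *Pglyrp1* and *Lcn2* proteins, and since skin holds other cells that make them, the markers of 10 cell types were examined beside the 9 genes. The 11 neutrophil markers in the table, of 12 listed, summed to 9.90 to 13.8 CPM in WT and 22.9 to 31.6 CPM in TG skin. Most of that was *Cxcr2* and *Csf3r*, the only 2 tested. *Cxcr2* had 5.11, 6.23 and 7.61 CPM in WT and 14.1, 13.2 and 11.7 CPM in TG skin and was called higher (log2 fold change 1.05, standard error 0.16, adjusted p = 0.0401, edgeR), and *Csf3r* had 3.35 to 4.95 and 6.71 to 14.5 CPM (adjusted p = 0.0531, edgeR). The other 9 were below the testing level. Of the granule genes, *Mmp8* had 0.0951 to 0.330 CPM in WT and 0.501 to 1.12 CPM in TG skin and *Ctsg* 0.0951 to 0.209 and 0.334 to 0.530 CPM, the 2 of the 9 without overlap (5.96% of all genes below the testing level). When all genes with a read were tested, neither was called (adjusted p = 0.0915 and 0.127, edgeR). The groups overlapped for *Mpo* (at most 0.353 CPM), *Elane* and *Prtn3* (at most 0.647 CPM), *Ngp* had 1 read, and *Ly6g* was not among the genes of the table. Calls in the marker lists are to be read beside 1.44% of all tested genes called higher and 0.464% lower. Of 8 macrophage markers, 2 were called higher, *Mrc1* (log2 fold change 0.54) and *Csf1r* (0.54), 7 were separated with TG higher (15.5% of all tested genes) and 1, *Mertk*, with TG lower (-0.16, adjusted p = 0.291, edgeR), with sums of 370 to 439 CPM in WT and 523 to 561 CPM in TG skin. T cell markers, 0 of 4 called and 0 at an unadjusted p below 0.05 (*Cd3e* 0.61 and *Cd3g* 0.19), summed to 8.09 to 10.5 and 8.96 to 10.8 CPM.

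Of the 6 basal keratinocyte markers *Krt14* was called higher (log2 fold change 0.95) and *Itga6* was not (0.57, adjusted p = 0.0616, edgeR), and the markers summed to 3318 to 4060 CPM in WT and 5592 to 7220 CPM in TG skin. Suprabasal markers, 0 of 6 called and 2 higher at an unadjusted p below 0.05, beside 13.3% of all tested genes (*Krtdap* and *Krt1*, log2 fold changes 0.85 and 0.72), summed to 4707 to 5595 and 6011 to 10640 CPM. Among the 4 stress keratins, *Krt16* (2.24) and *Krt6b* (2.85) were called higher, and *Krt6a* (1.27, adjusted p = 0.0797, edgeR) was not. *Krt17*, the most abundant in WT skin, had 962 to 1213 CPM in WT and 475 to 870 CPM in TG skin, without overlap (-0.63, adjusted p = 0.128, edgeR), and the sums over the 4 overlapped at 1194 to 1585 and 1222 to 2363 CPM. Of the 5 sebaceous gland markers *Soat1* was called higher (0.94) and *Awat2* was not (1.21, adjusted p = 0.0569, edgeR), and the sums were 211 to 346 and 465 to 513 CPM. The 9 hair shaft and inner root sheath markers had negative changes with no overlap in any, 0 called and 8 at an unadjusted p below 0.05, beside 18.2% of all tested genes separated with TG lower and 13% at such a p with TG lower. The lowest p-values were those of *Hoxc13* (-1.09) and *Krt28* (-1.39). Adipocyte (0 of 6 called) and skeletal muscle markers (0 of 6 called), none at an unadjusted p below 0.05, overlapped in their sums, at 1050 to 1293 and 916 to 1391 CPM and at 1271 to 6135 and 1224 to 3158 CPM. The lowest p-values were those of *Plin1* (0.23) and *Fabp4* (-0.11) and of *Myh4* (-1.19) and *Tnnt3* (-1.11). The part of any of these cell types in the values of *Slpi*, *Defb6*, *Defb1*, *Chil1* and *Lcn2* was not tested.

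**Figure D4:**
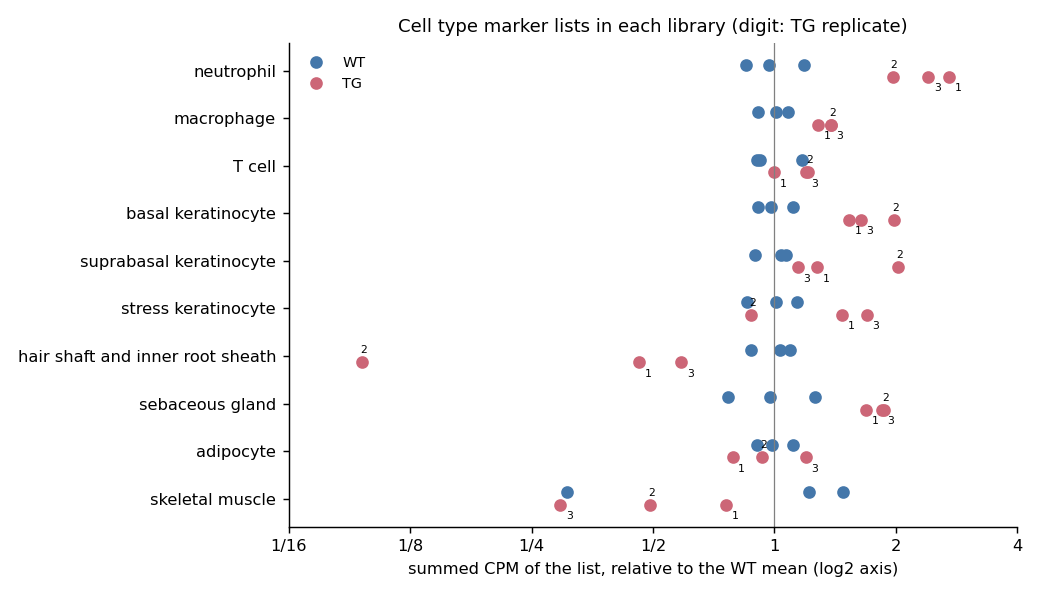
Summed CPM of 10 cell type marker lists in each library, relative to the WT mean, on a log2 axis, with WT in blue, TG in red and the TG replicate in digits. TG points lie to the right of all WT points for neutrophil, macrophage, basal and suprabasal keratinocyte and sebaceous gland lists, and to the left for the hair list, where TG replicate 2 is the lowest at 1389 CPM.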

How the data were processed

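RNA-Seq had been performed on skin of 3 WT and 3 TG female mice at postnatal day 33. For each Ensembl gene a raw count was deposited. To make it, the authors had aligned read pairs to the GRCm38 genome using TopHat2 (2.0.12 in the submitters' processing notes, which also name Bowtie2 2.1.0) and counted uniquely mapped reads with HTSeq-count. The strand setting and annotation release are not given in the sources used here, so overlapping genes are uncertain. The paper describes mRNA libraries and the labels a total RNA kit. Columns were assigned to mice by name. Total counts ranged from 11225705 to 19505036.

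Gene symbols, positions and exon lengths were taken from GENCODE release M21, and promoter windows from RefSeq (GRCm38.p6). Genes that reached 1 CPM in 3 or more libraries were tested after TMM scaling with genotype as the only term, using glmQLFit and glmQLFTest of edgeR 4.0.16 in R 4.3.3, in place of the authors' likelihood-ratio test because 3 mice a group leave the dispersion uncertain. The standard error is the log2 fold change divided by the square root of F, and the 95% interval uses its t quantile. As alternatives the scaling (RLE, upper quartile), the count filter and the test (likelihood ratio, voom in limma 3.58.1, DESeq2 1.42.0) were changed, the replicate number was added as a block, and libraries were left out in turn. Correlations used log2 CPM with a prior count of 2. The permutation test used log2(CPM + 0.1) and all 20 assignments. The tests were tried on simulated counts. P-values measure the spread between these mice.

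The 9 genes, the other lists (wider defence genes, inducers and regulators, receptors and targets, and markers of neutrophils, macrophages, T cells, basal, suprabasal and stress keratinocytes, hair shaft and inner root sheath, sebaceous gland, adipocytes and skeletal muscle) and the tests were chosen with earlier results of these data known. Of the other genes, those called in each list were named, at most 8 by lowest p, or the 2 with the lowest p where fewer passed, with the 3 tested genes most correlated with each tested defence gene, of which 1 is not reported here. *Il1b*, *Il36g*, *Il17ra*, *Il17rc*, *Il17c*, *Il17f*, *Il22ra1*, *Nfkbiz*, *Il36rn*, *Zc3h12a*, *Egfr*, *Vdr*, *S100a7a*, *S100a8*, *S100a9*, *Lrp2*, *Slc22a17*, *Elane*, *Ctsg*, *Mpo*, *Mmp8*, *Prtn3*, *Ngp*, *Mertk*, *Krt6a*, *Krt17*, *Defb3*, *Reg3g*, *Wfdc2*, *Nos2* and *Chil4* were named after their values were seen.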

Additional observations from a re-analysis of the deposited data

How the results depend on the processing

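The log2 fold changes of *Lcn2*, *Slpi*, *Defb1*, *Defb6* and *Chil1* stayed above 0 in all 14 alternatives. Over all genes, 288 were called, 357 with RLE, 416 with upper-quartile scaling and 497 without a count filter. With the likelihood-ratio test 1568 were called and with DESeq2 1590. With 1 library left out, 0 to 817 were called. Without WT replicate 2, WT replicate 3 or TG replicate 3 the number was 0. These fits had 2726, 2844 and 3691 genes at unadjusted p below 0.05, in that order. Without TG replicate 2 the number called was 817. Of the 5 tested defence genes, 0 were called, 1 with the likelihood-ratio test, 2 with DESeq2 and 0 to 1 with 1 library left out. Calls among the wider defence genes (3) became 5 with RLE, upper-quartile scaling or no filter, 12 with the likelihood-ratio test, 8 with DESeq2, 1 with voom and 0 to 6 with 1 library left out. Among inducers and regulators (2) they became 6 with upper-quartile scaling or no filter, 11 with the likelihood-ratio test, 15 with DESeq2 and 0 to 9 with 1 library left out. Among receptors and targets (1) they became 2 with RLE or upper-quartile scaling, 3 with no filter, 7 with the likelihood-ratio test, 6 with DESeq2, 0 with voom and 0 to 5 with 1 library left out. In the last 3 lists the number was 0 without WT replicate 2, WT replicate 3 or TG replicate 3, among others, and highest without TG replicate 2, while the 1 call among the 5 defence genes, *Defb6*, came without WT replicate 1. The cause was not tested. With the replicate number as a block, 0 genes were called over all genes and in every list, and 2949 had an unadjusted p below 0.05. Same-numbered mice did not deviate together (r between -0.332 and -0.0501, with 0 of 6 libraries closest to their own number). With 3 mice a group this cannot decide whether the number pairs mice, and nothing in the labels says that it does. At 1 to 20 reads per library, *Camp*, *Pglyrp1* and *Defb14* could show only large changes.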

Other observations

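Of the 12 wider defence genes in the table below the testing level, 4 (*Defb3*, *Reg3g*, *Wfdc2* and *Nos2*) were higher in every TG library than in any WT library and 0 were lower, beside 5.96% and 3.29% of the 11477 genes below that level. *Chil4*, a chitinase-like gene related to *Chil1*, had 25.9 CPM in TG replicate 3 and at most 0.110 CPM in each of the other 5 libraries. *Defb3*, an inducible beta-defensin, had 0 reads in the 3 WT libraries and 1, 4 and 7 reads in TG replicates 1 to 3. The 12 pooled TG reads were 3.82-fold higher when 3 reads are allowed over the WT group. That ratio takes the TG count as exact and leaves out the spread between mice. *Reg3g*, a bactericidal lectin of epithelia, had 0.110, 0 and 0 CPM in WT and 0.334, 0.471 and 0.999 CPM in TG replicates 1 to 3. When all genes with a read were tested, none of these 5 was called by edgeR's quasi-likelihood test (adjusted p = 0.118 for *Chil4*, 0.159 for *Defb3*, 0.0669 for *Reg3g*, 0.421 for *Wfdc2* and 0.459 for *Nos2*). They were singled out after their values were seen.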
